A study of Mus musculus with 8 samples.

Results

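Glycogen is the branched glucose polymer in which animal cells store sugar, and the 7 genes examined here encode the enzymes that build it and take it apart: Ugp2, Gyg, Gys1 and Gbe1 on the synthesis side, Pygl and Pygb on the cytosolic breakdown side, and Gaa in the lysosome. The rule is a list of GENCODE M21 gene symbols that sets no threshold on measured values, drawn up when earlier results of these data were known, and all 7 were present among the 54838 genes of the count files. All 7 also passed the filter on low counts, which kept 12405 genes for testing.

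The measurements came from mouse bone marrow cells on a C57BL/6 background carrying iMLL-AF9, a doxycycline-inducible allele of the MLL-AF9 fusion oncogene. Both groups shared this allele, were labelled as leukemic stem cells (the series text calls them preleukemic) and had the genotype label WT, and they differed in treatment alone: 4 samples received IOX5, an inhibitor of the HIF prolyl hydroxylases (the oxygen-dependent enzymes that mark hypoxia-inducible factors, HIFs, for destruction), and 4 received DMSO, the solvent control. The dose, the duration and whether equal replicate numbers mark one animal, culture or day are not given in the sources used here, so the p-values measure the spread between these samples, which may be technical. The comparison asks how blocking the prolyl hydroxylases changed the mRNA levels of these leukemic cells.

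As background, UDP-glucose pyrophosphorylase (Ugp2) makes the activated sugar UDP-glucose, glycogenin (Gyg) primes a new chain on itself, glycogen synthase (Gys1, the isoform of muscle and most other tissues) lengthens the chain, and the branching enzyme (Gbe1) adds side branches. Glycogen phosphorylase releases glucose 1-phosphate from the chain ends and exists as a liver (Pygl), a brain (Pygb) and a muscle (Pygm) isoform, while acid alpha-glucosidase (Gaa) degrades glycogen that has reached the lysosome. Several genes of this pathway, Gys1, Gbe1, Pygl and Pgm1 among them, are known from other systems as genes that respond to hypoxia through HIF-1.

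Because HIF binds the core sequences ACGTG and GCGTG, the promoter windows of the members were read from RefSeq (GRCm38.p6), each running from 250 bases before to 50 bases after an annotated start, and both strands were searched for these 2 motifs, with overlapping matches merged into 1 site. The 7 genes had 8 windows (Ugp2 has 2), and 5 of the 8 windows (62.5%) held a site, against 62.2% of the 11874 windows of tested genes and 43.8% of all 32851 windows. Windows of 4 members are shown, since they pair the 2 genes with the largest fold changes with 2 genes whose levels lay close together in the groups. Pygl (chr12:70227634-70227933, minus strand) held 2 sites and Gys1 (chr7:45434589-45434888, plus strand) held 0. Gyg (chr3:20155067-20155366, minus strand) held 2 sites and the upstream window of Ugp2 (chr11:21371218-21371517, minus strand) held 5. The sequences read 5′ to 3′ on the strand of the gene, and the capitals mark the sites.
Pygl: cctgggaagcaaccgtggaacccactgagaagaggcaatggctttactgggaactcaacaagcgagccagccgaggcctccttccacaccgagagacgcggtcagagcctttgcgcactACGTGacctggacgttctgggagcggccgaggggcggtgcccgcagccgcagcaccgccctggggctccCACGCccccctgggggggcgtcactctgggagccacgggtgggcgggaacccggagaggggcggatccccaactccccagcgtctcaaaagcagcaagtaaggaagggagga
Gys1: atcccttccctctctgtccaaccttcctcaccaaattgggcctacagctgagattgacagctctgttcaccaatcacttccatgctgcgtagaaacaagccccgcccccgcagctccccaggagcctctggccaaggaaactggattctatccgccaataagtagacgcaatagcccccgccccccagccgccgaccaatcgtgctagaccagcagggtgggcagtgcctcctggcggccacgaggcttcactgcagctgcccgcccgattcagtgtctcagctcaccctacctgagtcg
Gyg: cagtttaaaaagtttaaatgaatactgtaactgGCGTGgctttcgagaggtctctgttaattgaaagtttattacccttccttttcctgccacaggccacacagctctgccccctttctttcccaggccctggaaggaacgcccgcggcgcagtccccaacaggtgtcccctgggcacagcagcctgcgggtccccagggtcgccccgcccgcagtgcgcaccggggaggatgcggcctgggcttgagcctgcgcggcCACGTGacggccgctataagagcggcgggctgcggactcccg
Ugp2: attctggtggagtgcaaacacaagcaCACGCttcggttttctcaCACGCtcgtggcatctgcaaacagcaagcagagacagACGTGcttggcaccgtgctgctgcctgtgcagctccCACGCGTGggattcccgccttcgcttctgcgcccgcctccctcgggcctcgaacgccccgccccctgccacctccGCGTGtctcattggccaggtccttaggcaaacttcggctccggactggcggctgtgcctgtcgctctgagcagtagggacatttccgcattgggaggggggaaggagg

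In the Pygl window the first site lay 131 bases before the RefSeq start and the second, on the opposite strand, 62 bases before it. The GENCODE model of Pygl reaches further upstream than this RefSeq start. Of the other windows, that of Gaa held 1 site, that of Pygb held 2, and those of Gbe1 and of the downstream Ugp2 start held 0. Gys1 thus had no match in its window while Ugp2 had the most. A match is a description of the sequence and not a measured binding site.

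Each library held 12343770 to 14116054 reads assigned to genes in the DMSO group and 11351507 to 12708888 in the IOX5 group, and 20.6% to 22.6% of all counted reads were assigned to no gene. Levels are given in CPM, the usual depth-normalized read count, here with reads scaled by the TMM-adjusted library size, and the 7 members had 384 to 4510 reads per sample. Over all genes, edgeR's quasi-likelihood test called 96 genes higher and 155 lower with IOX5 at an adjusted p (Benjamini-Hochberg) under 0.05, which is 0.774% and 1.25% of the genes tested and 2.02% in either direction; scaling by upper quartiles gave 101 higher and 108 lower. A fit that treated the replicate number as a block called 11.2% of genes higher, 9.43% lower and 20.7% in either direction. Equal numbers shared deviations across genes, but these did not separate numbers 3 and 4. Samples numbered 4 correlated at r = 0.636, and at up to 0.685 with another number. Because of the shared deviations, values from the blocked fit are printed wherever they change a call. Of 8 known HIF target genes, 5 were called higher without the block and 8 with it. These 8 genes were listed with earlier results of these data known, so the counts are not an independent check of the treatment.

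The labelled cell type was checked against marker lists. The summed level of 10 myeloid progenitor and granule genes ranged from 4401 to 8004 CPM in DMSO and from 5009 to 8974 CPM in IOX5, B cell markers summed to at most 0.233 CPM and T cell markers to at most 0.162 CPM, with Ms4a1, Cd3g, Cd4 and Cd8a at 0 reads in every sample. The cells were therefore of a myeloid kind by these genes, with other myeloid markers present as well. Macrophage marker sums (7 genes, 6 of them tested) were 164.0 to 223.6 CPM in DMSO and 246.4 to 538.2 CPM in IOX5, with no overlap. Neutrophil marker sums (9 genes) were 594.4 to 1395 CPM in DMSO and 761.7 to 2149 CPM in IOX5. Mast cell and basophil markers summed to 86.3 to 433.3 CPM and 109.6 to 766.5 CPM in DMSO and IOX5, megakaryocyte markers to 15.8 to 61.7 and 34.7 to 107.4 CPM, erythroid markers to 3.89 to 17.1 and 7.37 to 28.2 CPM, and stromal markers to at most 5.06 CPM in any sample. Of the 39 markers tested, 0 were called without the block (edgeR, 5 at an unadjusted p under 0.05, 4 by DESeq2), while with it 24 were called higher, among them 7 of 10 progenitor, 3 of 6 macrophage and 6 of 9 neutrophil genes, and 1 lower. Of all tested genes, 11.2% were called higher and 9.43% lower with the block. In bulk samples, more or fewer cells of a type and more or less RNA per cell cannot be told apart.

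Among the 7 members, Pygl alone was called higher with IOX5 without the block, where 0.774% of all tested genes were, and none was called lower (edgeR; 2 members, Pygl and Gys1, had an unadjusted p under 0.05). With the block, 4 members were called higher (Pygl, Gys1, Gbe1 and Gaa) and none lower, against 11.2% and 9.43% of all tested genes. DESeq2 called 2 members higher, Pygl and Gys1, against 4.67% of the 10471 genes to which it gave an adjusted p, and none lower, against 5.75%. The fold changes of 5 members were above 0 and the median over the 7 was 0.21 on the log2 scale, beside 0.02 over all genes tested. The lowest IOX5 sample lay above the highest DMSO sample for 2 of 7 members, Pygl and Gys1, against 5.98% of all genes, and no member showed the opposite, against 8.3%. In 4 members (Pygl, Gys1, Gbe1 and Gaa) the IOX5 sample was higher than the DMSO sample of the same number in all 4 pairs, which held for 21.3% of all genes, and no member was lower in all 4 pairs, which held for 19.8%.

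**Figure D1:**
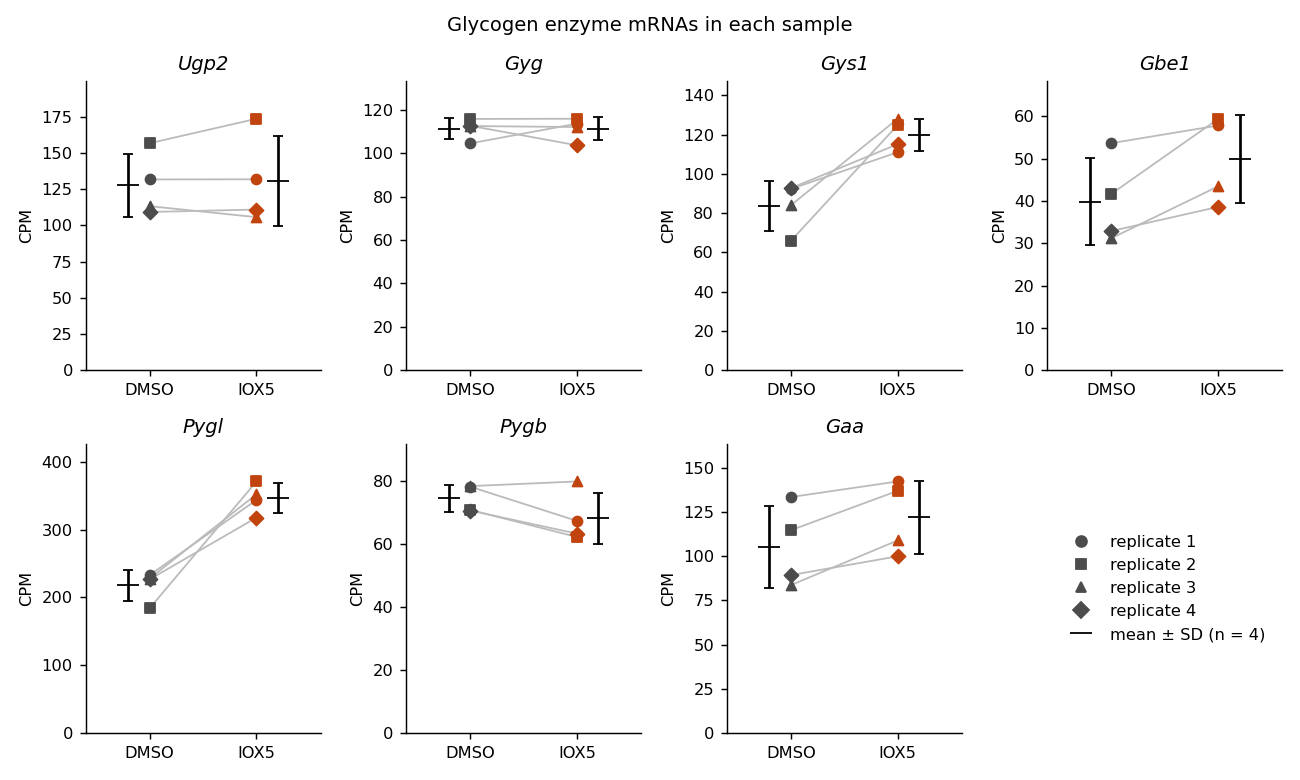
Level of each of the 7 mRNAs in CPM (vertical axis, linear and starting at 0) in the 4 DMSO samples (grey) and 4 IOX5 samples (orange), with symbols for the replicate numbers, grey lines joining equal numbers, and black bars for the mean ± SD. Every line rises for Gys1, Gbe1, Pygl and Gaa, and the groups separate fully only for Gys1 (65.9 to 92.7 against 111.1 to 128.1 CPM) and Pygl (184.1 to 233.1 against 318.0 to 371.4 CPM).

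**Figure D2:**
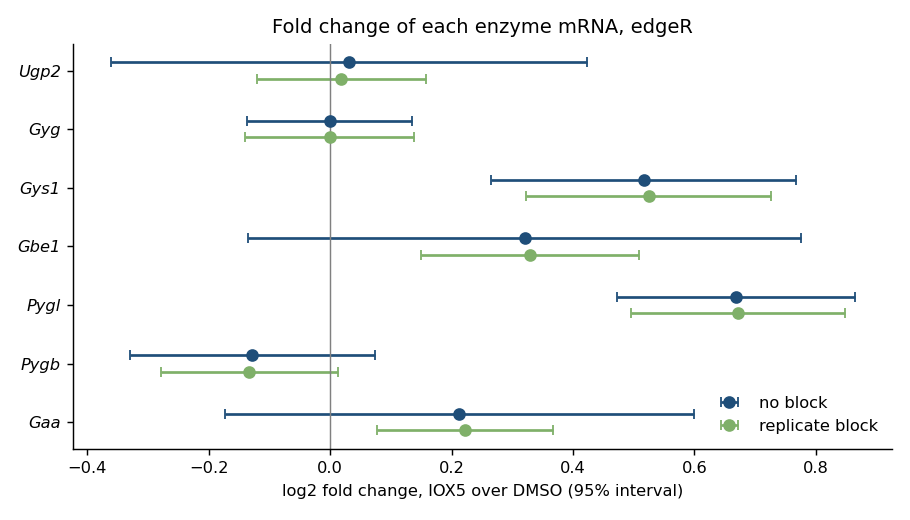
Log2 fold change of IOX5 over DMSO (horizontal axis) for each of the 7 mRNAs from edgeR, with 95% intervals, without a block (blue) and with a block for the replicate number (green). The points hardly move between the fits, while the interval of Gbe1 narrows from between -0.13 and 0.78 to between 0.15 and 0.51.

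Pygl, the liver-type phosphorylase that releases glucose 1-phosphate from glycogen, showed the largest fold change of the 7. The gene (ENSMUSG00000021069) lies on the minus strand of GRCm38 at chr12:70190811-70231488. Its level was 233.1, 184.1, 228.0 and 226.8 CPM in DMSO replicates 1 to 4 and 344.1, 371.4, 352.5 and 318.0 CPM in IOX5 replicates 1 to 4. All IOX5 samples were above all DMSO samples, and DMSO replicate 2 stood below the other 3 controls. The means were 218.0 ± 22.8 CPM (SD, n = 4) and 346.5 ± 22.2 CPM (SD, n = 4), a log2 fold change of 0.67 (SE 0.0866, 95% interval 0.47 to 0.86, edgeR adjusted p = 0.0175). Within replicate numbers the log2 differences were 0.56, 1.01, 0.63 and 0.49, the widest in number 2, where the low control and the highest treated sample met.

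The call for Pygl held without DMSO replicate 2 (log2 fold change 0.60, adjusted p = 0.0386) and without IOX5 replicate 2, the sample with the highest macrophage and neutrophil sums (0.63, adjusted p = 0.0376). It was lost without DMSO replicate 1 (adjusted p = 0.0542), DMSO replicate 3 (0.0636), DMSO replicate 4 (0.0901) or IOX5 replicate 3 (0.0646), although the log2 fold changes of these fits were 0.66 to 0.70.

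Pygb, the brain-type phosphorylase, was not called in either direction, with or without the block. It is ENSMUSG00000033059, on the plus strand at chr2:150786735-150831758. Its level was 78.1, 70.8, 78.3 and 70.6 CPM in the DMSO samples and 67.3, 62.2, 79.8 and 63.2 CPM in the IOX5 samples. The groups overlapped, and the highest of all 8 values was IOX5 replicate 3. The means of 74.5 ± 4.37 and 68.1 ± 8.10 CPM (SD, n = 4 each) gave a log2 fold change of -0.13 (SE 0.0893, 95% interval -0.33 to 0.074, edgeR adjusted p = 0.464), with IOX5 above DMSO in 1 of 4 pairs.

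The muscle isoform Pygm was low, with 20 to 65 reads per sample and means of 2.72 CPM in DMSO and 3.34 CPM in IOX5. Per kilobase of merged exon, Pygl made up 65.9%, 63.2%, 66.1% and 68.3% of the phosphorylase reads in the DMSO samples and 76.2%, 78.9%, 74.9% and 77.1% in the IOX5 samples. These ranges did not overlap, with means of 65.9% ± 2.09 and 76.8% ± 1.69 (SD, n = 4 each). The share depends on the length given to Pygl: with the longest coding transcript of each gene it was 78.4% and 86.2%, and with no length correction 73.8% and 82.9%. It is a description, with no test.

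Gys1, the synthase that adds glucose from UDP-glucose to the chain, followed Pygl in size of change. It is ENSMUSG00000003865, on the plus strand at chr7:45434844-45456619. Its level was 92.3, 65.9, 84.0 and 92.7 CPM in DMSO and 111.1, 124.9, 128.1 and 115.2 CPM in IOX5. All IOX5 values were above all DMSO values, and DMSO replicate 2 was again the lowest sample. The means were 83.7 ± 12.6 and 119.8 ± 8.02 CPM (SD, n = 4 each), with pair differences of 0.27, 0.92, 0.61 and 0.31 on the log2 scale.

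The log2 fold change of Gys1 was 0.52 (SE 0.111, 95% interval 0.27 to 0.77), and its edgeR adjusted p of 0.0526 missed the threshold without the block. It passed with the block (0.52, SE 0.0938, adjusted p = 0.00207), also when any 1 replicate number was left out (highest adjusted p = 0.0205), and in DESeq2 (adjusted p = 0.000739). Without DMSO replicate 2 and without the block it was 0.42 (adjusted p = 0.0750). Exons of Gys1 share 310 bp with those of Ruvbl2 on the opposite strand. Ruvbl2, a more abundant mRNA, had 195.6 CPM in DMSO and 170.7 CPM in IOX5 (log2 fold change -0.20, edgeR adjusted p = 0.318), the opposite sign to Gys1. The libraries were directional, and Xist had 105071 reads against 21 for its antisense partner Tsix. The strand setting of the counting is not given, and these counts cannot settle it. Counting without strand can set reads over shared exons aside rather than credit them to Tsix. The part of the shared 310 bp in the count of Gys1 was not tested.

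Gbe1, the branching enzyme, had the lowest level of the 7. It is ENSMUSG00000022707, on the plus strand at chr16:70313949-70569716. Its level was 53.6, 41.7, 31.2 and 32.9 CPM in DMSO and 57.8, 59.4, 43.5 and 38.6 CPM in IOX5. In both groups replicates 1 and 2 were above replicates 3 and 4, and the groups overlapped. The means of 39.9 ± 10.3 and 49.8 ± 10.4 CPM (SD, n = 4 each) gave a log2 fold change of 0.32 (SE 0.201, 95% interval -0.13 to 0.78, edgeR adjusted p = 0.413).

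Within replicate numbers the Gbe1 differences were 0.11, 0.51, 0.48 and 0.23 on the log2 scale, and with the block the gene was called higher (0.33, SE 0.0836, adjusted p = 0.0146). That call was lost without replicate number 3 (0.28, adjusted p = 0.110). The coefficient of variation of Gbe1 was 25.8% in DMSO and 20.8% in IOX5, where read counting alone would give 4.36% and 4.09%. Its nearest pattern among 8924 genes over the 8 samples, by the root mean square difference of centered log2 CPM, was that of another member, Gaa (0.0793).

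Ugp2, which supplies the UDP-glucose, spread widely within both groups. It is ENSMUSG00000001891, on the minus strand at chr11:21321138-21371201. Its level was 131.7, 156.7, 113.3 and 109.3 CPM in DMSO and 131.8, 173.6, 105.7 and 110.9 CPM in IOX5. The ranges overlapped almost fully, and replicate 2 was the highest in both groups. With means of 127.7 ± 21.7 and 130.5 ± 30.9 CPM (SD, n = 4 each), the log2 fold change was 0.03 (SE 0.173, 95% interval -0.36 to 0.42, edgeR adjusted p = 0.942). With the block the interval of Ugp2 narrowed to between -0.12 and 0.16 (adjusted p = 0.863).

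Gyg, the priming protein, was the steadiest of the 7. It is ENSMUSG00000019528, on the minus strand at chr3:20122084-20155317. Its level was 104.5, 115.8, 112.5 and 112.7 CPM in DMSO and 113.6, 115.9, 112.1 and 103.6 CPM in IOX5. The lowest of the 8 values was in the IOX5 group and the second lowest in the DMSO group. Its means of 111.4 ± 4.81 and 111.3 ± 5.35 CPM (SD, n = 4 each) gave a log2 fold change whose 95% interval ran from -0.14 to 0.13 (edgeR adjusted p = 0.996), and whose sign turned with the scaling of the libraries. Its coefficient of variation was 4.32% in DMSO and 4.81% in IOX5.

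Of the 4 synthesis genes, 2 were called higher with the block (Gys1 and Gbe1) and 2 were not (Ugp2 and Gyg). The 95% interval of Gys1 without the block (0.27 to 0.77) lay above that of Gyg (-0.14 to 0.13), and the difference between the 2 genes was not tested itself.

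Gaa, the lysosomal alpha-glucosidase, resembled Gbe1 rather than the cytosolic phosphorylases in its spread. It is ENSMUSG00000025579, on the plus strand at chr11:119267887-119285454. Its level was 133.4, 114.6, 83.6 and 89.3 CPM in DMSO and 142.2, 136.9, 108.9 and 99.9 CPM in IOX5. Replicates 1 and 2 were again above replicates 3 and 4 in both groups, and the groups overlapped. Means of 105.2 ± 23.1 CPM in DMSO and 122.0 ± 20.8 CPM in IOX5 (SD, n = 4 each) corresponded to a log2 fold change of 0.21 (SE 0.171, 95% interval -0.17 to 0.60, edgeR adjusted p = 0.528).

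Within replicate numbers the Gaa differences were 0.092, 0.26, 0.38 and 0.16 on the log2 scale. With the block Gaa was called higher (0.22, SE 0.0673, adjusted p = 0.0332), and the call was lost without replicate number 1 (0.26, adjusted p = 0.0552) or number 3 (0.17, adjusted p = 0.233). Other lysosomal glycosidases, a list of 12 genes for enzymes that cut sugars from glycolipids, glycoproteins and glycosaminoglycans, gave a median log2 fold change of 0.30, with 10 of 12 above 0. Over all genes tested the median was 0.02, with 6550 of 12405 above 0. None of the 12 was called without the block (edgeR, 4 at an unadjusted p under 0.05, 3 by DESeq2). With the block 8 were called higher, where 11.2% of all tested genes were. Among the 12, Glb1 (beta-galactosidase) had a log2 fold change of 0.57 (edgeR adjusted p = 0.145 without and 0.000224 with the block).

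The split between replicates 1 and 2 and replicates 3 and 4, seen in both groups for Gbe1, Gaa and Ugp2, had counterparts in the marker sums. Neutrophil markers summed to 835.5 and 1395 CPM in DMSO replicates 1 and 2 and to 639.3 and 594.4 CPM in replicates 3 and 4, and in IOX5 to 971.0 and 2149 CPM against 843.1 and 761.7 CPM. The progenitor sum went the other way, at 4749 and 4401 CPM in DMSO replicates 1 and 2 against 8004 and 7408 CPM in replicates 3 and 4. This sum weighs abundant genes most, and Mpo alone ranged from 984.1 to 3380 CPM in DMSO. Mast cell and basophil markers also went the other way, at 86.3 and 122.1 CPM against 433.3 and 367.8 CPM in DMSO and at 109.6 and 254.0 CPM against 766.5 and 589.7 CPM in IOX5. Megakaryocyte markers divided the same way, at 43.8 and 15.8 CPM against 61.7 and 60.0 CPM in DMSO and at 62.2 and 34.7 CPM against 107.4 and 86.8 CPM in IOX5. Pygl and Gys1 did not divide along these numbers. Macrophage sums, whose IOX5 range lay above the DMSO range, divided the groups as Pygl and Gys1 did. By single gene, only Adgre1 and Cd14 of that list did so, while the groups overlapped for Csf1r, Cd68, Mrc1, C1qa and C1qb. The part of these marker differences in the results was not tested.

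To compare the members with one another, CPM was divided by the length of the merged exons. In DMSO the order was Gyg (47.5 ± 2.05 CPM per kilobase), Ugp2 (41.6 ± 7.06), Pygl (31.6 ± 3.30), Gaa (22.0 ± 4.84), Gys1 (17.5 ± 2.62), Pygb (15.5 ± 0.908) and Gbe1 (7.45 ± 1.92), each with SD and n = 4. Gyg was thus above 90.9% of the tested genes and Gbe1 above 51.1%. Neighbors overlapped in their ranges between Gyg and Ugp2, and along the run from Pygl through Gaa and Gys1 to Pygb, while Ugp2 was above Pygl and Pygb above Gbe1 in every sample of the group.

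In IOX5 Pygl came first, at 50.3 ± 3.21 CPM per kilobase, ahead of Gyg at 47.5 ± 2.28 by the means. The IOX5 ranges of Pygl (46.1 to 53.9), Gyg (44.2 to 49.4) and Ugp2 (34.4 to 56.6) overlapped. Within each IOX5 sample Pygl was above Gyg, at 49.9, 53.9, 51.1 and 46.1 against 48.5, 49.4, 47.8 and 44.2 in replicates 1 to 4. Ugp2 was above Pygl in IOX5 replicate 2 (56.6 against 53.9) and below it in the others. These differences between genes were not tested. Gys1 reached 25.0 ± 1.67 beside Gaa at 25.5 ± 4.34. The place of Pygl rests on its length. Its merged exons span 6895 bases but its longest coding transcript 2992 bases, and with the latter lengths Pygl was first in DMSO too, at 72.9 ± 7.61 CPM per kilobase, ahead of Gyg at 58.0 ± 2.50, while the other 6 kept their order.

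**Figure D3:**
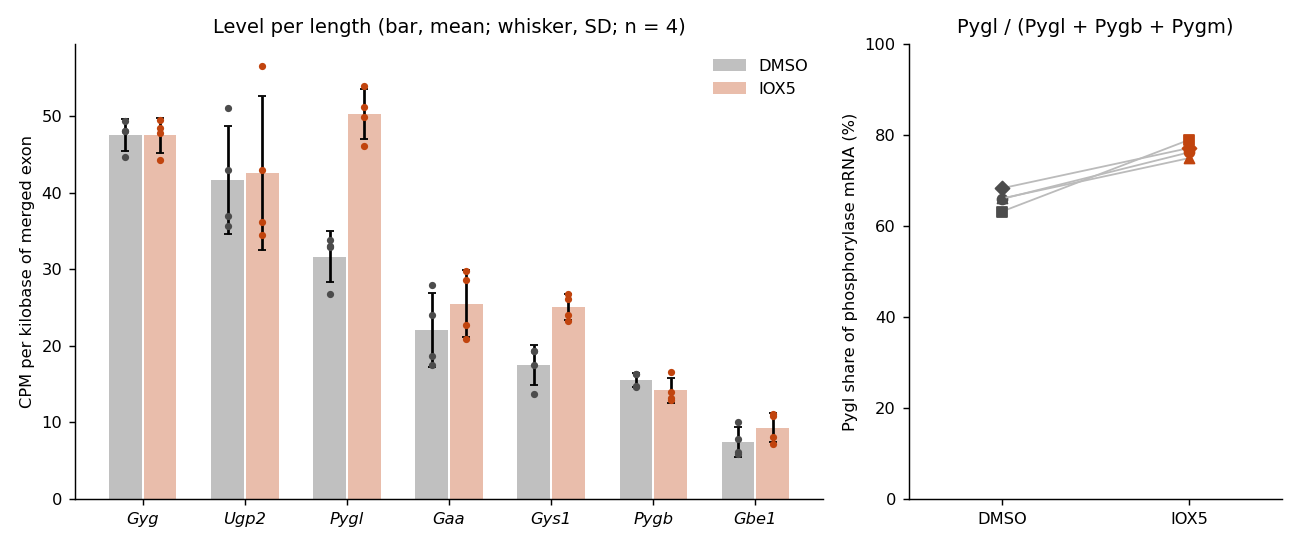
Left, level of each mRNA in CPM per kilobase of merged exon (bars, mean; whiskers, SD; points, the 4 samples of a group), ordered by the DMSO mean. Right, Pygl as a percentage of the phosphorylase reads per kilobase of the 3 isoforms in each sample, with lines joining equal replicate numbers and the same symbols as in the plot of CPM by sample. Pygl goes from behind Gyg and Ugp2 at 31.6 to first by the mean at 50.3 CPM per kilobase, within the IOX5 range of Ugp2, and its share from 63.2% to 68.3% in DMSO to between 74.9% and 78.9% in IOX5.

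The rest of the pathway was read from a list of 43 genes by role, of which the 7 members are part. Of the 36 other genes, 26 passed the filter, and none of these was called without the block (edgeR, 8 at an unadjusted p under 0.05, 3 by DESeq2). With the block 5 of the 26 were called higher and 1 lower, where 11.2% and 9.43% of all tested genes were. The median log2 fold change of the 26 was 0.06, with 17 above 0 and 9 below, beside 0.02 over all genes tested.

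Pgm1, the phosphoglucomutase that interconverts glucose 1-phosphate and glucose 6-phosphate, had 128.6, 93.4, 108.7 and 112.2 CPM in DMSO and 153.8, 138.7, 138.6 and 139.5 CPM in IOX5. The groups did not overlap, and DMSO replicate 2 was once more the lowest. The log2 fold change was 0.37 (edgeR adjusted p = 0.0794 without and 0.00246 with the block). Its exons share 398 bp with Itgb3bp on the opposite strand.

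Ppp1r3b, which brings protein phosphatase 1 to glycogen, had 31.3, 35.6, 24.9 and 28.5 CPM in DMSO and 36.3, 53.9, 37.2 and 36.2 CPM in IOX5. These ranges did not overlap, by a margin of under 1 CPM. The log2 fold change was 0.44 (edgeR adjusted p = 0.170 without and 0.00405 with the block). Slc37a4, the glucose 6-phosphate transporter of the endoplasmic reticulum, rose with the block from a mean of 35.2 to 43.4 CPM (log2 fold change 0.30, edgeR adjusted p = 0.0735 without and 0.0122 with it), with no overlap. The call was lost without replicate number 3, where the log2 fold change was 0.31 (adjusted p = 0.0711).

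Epm2a encodes laforin, a phosphatase that removes phosphate from glycogen, and it had the largest fold change among these genes at a low level. Its values were 5.93, 2.96, 3.98 and 3.24 CPM in DMSO and 10.7, 10.1, 7.11 and 5.72 CPM in IOX5. IOX5 replicate 4 lay just under DMSO replicate 1. The log2 fold change was 1.06 (SE 0.284, edgeR adjusted p = 0.0868 without and 0.00124 with the block).

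Gsk3b, a kinase that inhibits glycogen synthase by phosphorylation, was the gene called lower with the block. It had 126.9, 140.5, 139.2 and 140.6 CPM in DMSO and 110.4, 129.2, 121.9 and 110.9 CPM in IOX5, and was lower in 4 of 4 pairs. Its log2 fold change was -0.21 (edgeR adjusted p = 0.144 without and 0.0319 with the block), and the call was lost with the block without number 1, 3 or 4, where the log2 fold changes were -0.22, -0.22 and -0.17 (adjusted p = 0.0898, 0.129 and 0.0909).

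Ppp1cb and Ppp1cc, catalytic subunits of protein phosphatase 1, were not called, but their groups did not overlap in the other direction. Ppp1cb ranged from 379.8 to 414.3 CPM in DMSO and from 325.9 to 367.9 CPM in IOX5 (log2 fold change -0.17, edgeR adjusted p = 0.175 without and 0.0660 with the block). Its exons share 1908 bp with the gene model Gm43312 on the same strand, so its count is uncertain. Ppp1cc ranged from 148.9 to 153.3 CPM in DMSO and from 133.4 to 145.2 CPM in IOX5 (log2 fold change -0.14, edgeR adjusted p = 0.181 without and 0.133 with the block). In all, the groups did not overlap for 5 of the 26 genes, 3 higher and 2 lower with IOX5, against 5.98% and 8.3% of all tested genes.

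By role, none of the 4 tested phosphorylase kinase subunits and none of the 5 tested AMPK subunits was called by edgeR without the block (0 at an unadjusted p under 0.05, 0 by DESeq2). None was called with it either, where Phkb, a regulatory phosphorylase kinase subunit, came nearest (log2 fold change 0.19, unadjusted p = 0.0111, adjusted p = 0.0524) and was the only one of the 9 at an unadjusted p under 0.05. Of the 10 genes left out by the filter, Gys2 (the liver synthase) and Ppp1r3a (the muscle targeting subunit) had 0 reads in all 8 samples. G6pc, the catalytic subunit of liver glucose 6-phosphatase, had 2 reads, Ppp1r3c 5, Phkg1 7, Prkag3 10, Prkaa2 15, Stbd1 18, Ppp1r3g 25 and Ppp1r3f 72 reads over the 8 samples.

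**Figure D4:**
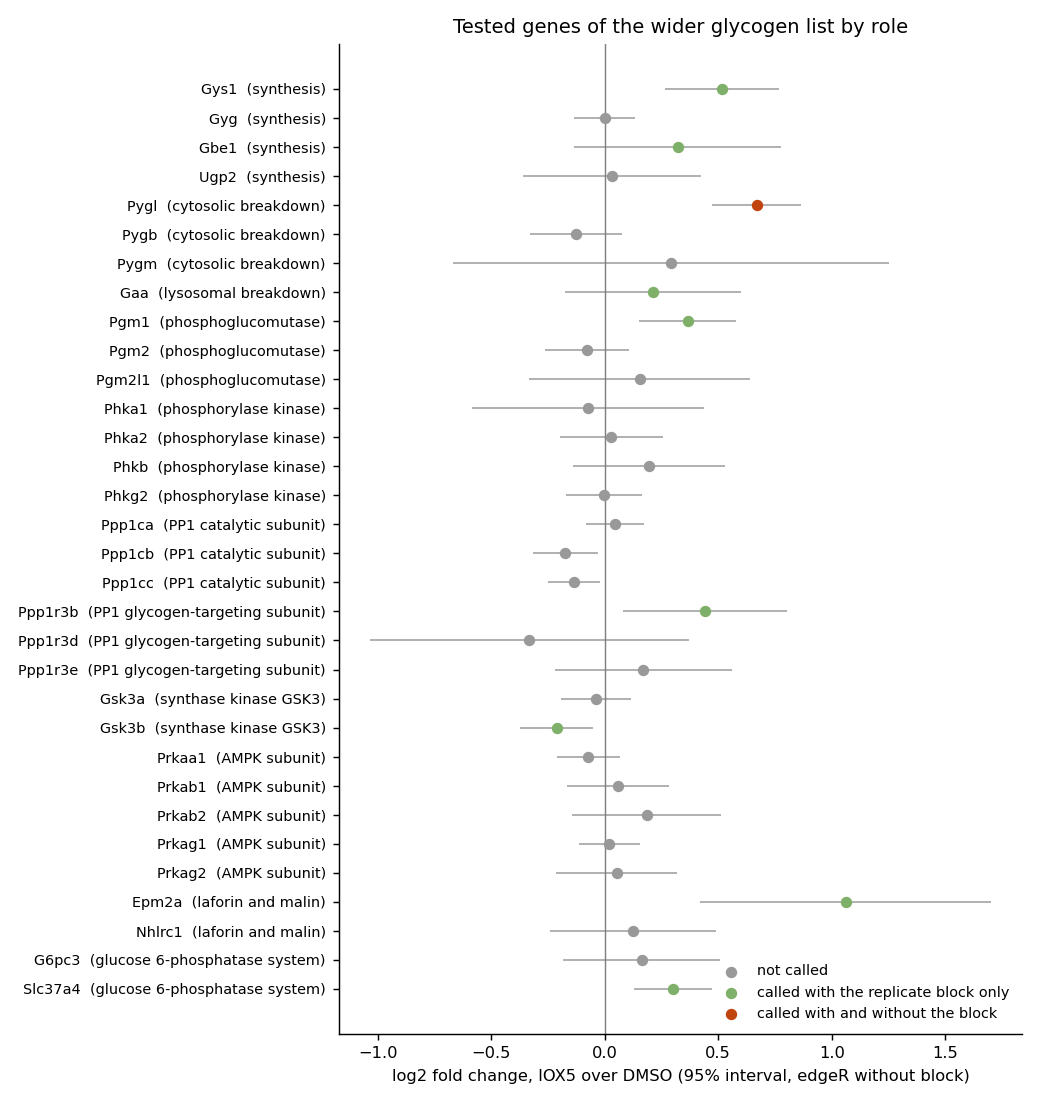
Log2 fold change of IOX5 over DMSO (horizontal axis, edgeR without block, bars for the 95% interval) of tested genes of the glycogen list, grouped by role. Orange marks the gene called with and without the block (Pygl), green those called with the block only, and grey the rest; the green points lie right of 0 except that of Gsk3b at -0.21.

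Upstream of glycogen, genes for glucose uptake and its first steps were read from a list of 7, of which 6 were tested and all 6 had fold changes above 0 (median 0.36). Over all genes tested, 6550 of 12405 were above 0 (median 0.02). Gpi1, which interconverts glucose 6-phosphate and fructose 6-phosphate, was called higher without the block, from 1012 to 1325 CPM (log2 fold change 0.39, edgeR adjusted p = 0.0296). With the block, Slc2a1 (a glucose transporter, log2 fold change 0.43, adjusted p = 0.00399), Hk1 (a hexokinase, 0.30, adjusted p = 0.00984) and Hk3 (a hexokinase of blood cells, 0.44, adjusted p = 0.000991) were called higher too. Without it their edgeR adjusted p were 0.0689, 0.126 and 0.108. The block called 11.2% of all tested genes higher. Hk2 (log2 fold change 0.14, adjusted p = 0.189 with the block) and Slc2a3 (0.34, adjusted p = 0.0840) were not called in either fit.

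The genes whose pattern over the 8 samples was most like that of a called member were found by the smallest root mean square difference of centered log2 CPM. For Pygl these were Pdk1, a pyruvate dehydrogenase kinase (difference 0.0595; 168.1 and 267.2 CPM in DMSO and IOX5), and Itm2b (0.0615). For Gys1 they were Sfxn3 (0.0614) and Wdr45 (0.0738). For Gbe1 they were Gaa and Stx2 (0.0849), and for Gaa they were Acadvl, a mitochondrial fatty acid dehydrogenase (0.0597), and Ppp6r2 (0.0612).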

How the data were processed

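RNA-seq libraries (directional, poly(A)-selected, single-end) of 8 samples were used. The authors trimmed reads with cutadapt 1.18, aligned them to GRCm38 with HISAT2 2.2.1 and counted reads per gene with HTSeq 2.0.1, per the submitters' processing notes. The deposited values are raw counts per Ensembl gene. The release of the annotation used for counting and the strand setting are not given in the sources used here. Xist was compared with Tsix, which does not settle whether reads were counted by strand. GENCODE M21 gave symbols for 54809 of 54838 genes. Rows that name no gene were left out.

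Counts were tested with edgeR 4.0.16 (R 4.3.3; filterByExpr, TMM, quasi-likelihood, Benjamini-Hochberg over 12405 genes), with treatment as the only term. The common biological coefficient of variation was 0.202. The steps were tested on simulated data. CPM uses the TMM library sizes, and log2 CPM a prior count of 2. Depth was 11351507 to 14116054 gene reads.

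Deviations of samples with equal replicate numbers correlated across genes at r = 0.758, 0.744, 0.732 and 0.636 for numbers 1 to 4. The highest correlation with another number was 0.212 for numbers 1 and 2 and 0.685 for numbers 3 and 4, above the 0.636 of number 4. The pairing is read from the data, since the labels do not say what a number marks, and the data do not separate numbers 3 and 4. A fit with the number as a block was therefore set beside the first. Other alternatives were DESeq2 1.42.0, limma 3.58.1 (voom with quality weights per sample), scaling by RLE or upper quartiles, other filters, thinning, and leaving out each sample or number.

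The members, lists and tests were chosen with earlier results of these data known. Named genes are the 7 members, genes of the glycogen list called with or without the block, those the filter removed, and for each called member the 2 nearest patterns among genes with a mean of at least 10 CPM. Some genes that these rules name are not reported here. Genes quoted from other lists were chosen after their values were seen, as were Ppp1cb, Ppp1cc and Phkb.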

Additional observations from a re-analysis of the deposited data

Results flagged for a closer look

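Pygl in DMSO replicate 2 stood apart from the other controls. Its level was 184.1 CPM, while the other 3 DMSO samples lay between 226.8 and 233.1 CPM, so that its gap to the nearest of them was 0.870 of the range of the group, above Dixon's 95% critical value for 4 samples. It was the 1 such case in 16 checks (7 genes and the Pygl share, in 2 groups), and chance gives about 1 in 20. Without this sample the log2 fold change of Pygl was 0.60 (edgeR adjusted p = 0.0386).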

How the results depend on the processing

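Over 20 alternatives, Pygl kept its direction, with log2 fold changes of 0.56 to 0.74, and passed the threshold in 16. Gys1 (0.40 to 0.61) passed in 9, Gbe1 in 4, Gaa in 3 and Pygb (-0.21 to -0.056) in none. The 2 genes near 0 turned sign. Gyg was 0.010 with DESeq2, 0.0098 with RLE factors, 0.017 with upper quartiles, 0.0055 with no low-count filter, 0.013 with at least 10 reads in every sample, 0.0058 after thinning, 0.042 with the replicate block without number 4, and -0.030 to 0.031 when 1 sample was left out. Ugp2 was -0.025 with the replicate block without number 2 and -0.14 to 0.14 when 1 sample was left out.

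Members called higher numbered 4 with the replicate block, 2 with DESeq2, voom, no filter or at least 10 reads, and 0 to 1 with 1 sample left out (0 when DMSO sample 1, 3 or 4 or IOX5 sample 3 was missing). With the block and without number 1, 2, 3 or 4 they were 3, 4, 2 and 4. No member was called lower in any of these. On the list of 43 genes, those called higher were 9 with the replicate block, 5 with DESeq2, 6 with voom, 2 with no filter or at least 10 reads, 0 to 1 with 1 sample left out, and 8, 9, 6 and 10 with the block without number 1, 2, 3 or 4, while 1 was called lower with the block, with voom, and with the block without number 2, and 0 with 1 sample left out. Over all genes, 1394 were higher and 1170 lower with the replicate block, 489 and 602 with DESeq2, 426 and 610 with voom, and 79 and 73 with no filter. With 1 sample left out they were 0 to 130 and 0 to 333, and edgeR called 0 in each of the fits that lacked DMSO replicate 3, DMSO replicate 4 or IOX5 replicate 3 (1969, 1846 and 2111 at an unadjusted p under 0.05). With the block and without number 1, 2, 3 or 4 they were 994, 1119, 642 and 1355 higher and 650, 1016, 403 and 1058 lower. The Pygl share was 78.4% in DMSO and 86.2% in IOX5 with the longest coding transcripts, 73.8% and 82.9% with no length, and 65.1% to 66.8% and 76.1% to 77.4% with 1 sample left out. Among the members the block changed no call beyond those of Gys1, Gbe1 and Gaa. The cause of these changes was not tested. With 384 reads or more per sample, counting error was small beside the spread between samples for each member except Gyg and, in DMSO, Pygb, where the spread was under 2 times the counting error.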
